A study of Mus musculus with 8 samples.

Results

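The samples described here are 4 spontaneous ovarian tumours that carry wild-type Nedd9, 4 of the 8 samples of the series. Each came from 1 untreated female C57BL/6J mouse of the strain TgMISIIR-TAg; Nedd9-WT. In this strain the promoter of the MISII receptor gene (Amhr2, the receptor of anti-Muellerian hormone) drives the T antigen of simian virus 40, so every tumour of the series carries the transgene, and tissue without it was not analysed here. The labels differ on size: the design text puts the tumour burden below 2000 mm3, while the growth protocol has mice sacrificed once that volume was reached. RNA came from snap-frozen tumour tissue, so fewer cells of a type and less RNA per cell cannot be told apart in any value below. The comparison with Nedd9-null tumours is not made here, and with 1 group there is no test: every statement is a level or a spread over the 4 tumours, named tumours 1 to 4 after their replicate numbers. The samples were chosen by their titles alone, and no measured value entered that choice.

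T antigen is a viral oncoprotein that binds and disables p53 and the retinoblastoma proteins and so drives cells into the cell cycle. The MISII receptor is a receptor kinase made by the somatic cells of the gonads: granulosa cells of the follicle, Sertoli cells of the testis, and cells of the Muellerian duct wall and the ovarian surface. The lists below therefore cover the genes of these cell types, of the epithelia near them, and of the other cells a piece of tumour can hold.

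RNA was hybridised to 1-colour Agilent arrays that lay on 1 slide. A value is the log2 of the scanner's processed signal minus the log2 of the array's 75th percentile, so 0 is that percentile, and 1 unit is a doubling of signal. Where 4 values follow a gene, they are those of tumours 1, 2, 3 and 4 in that order. Of 31818 gene names, 22483 (70.7%) were well above background on all 4 arrays and 4657 (14.6%) on none, by the scanner's flag. Counts of list genes above background on all 4 arrays, or at background on all 4, are to be read against these shares. Passing the flag is a low bar, since genes of tissues far from the ovary passed it too. Between 73.0% and 83.0% of probes passed the flag on an array, fewest in tumour 2. Spots of the same probe on 1 array differed by a median SD of 0.046 to 0.050 log2 above background and of 0.24 to 0.45 log2 at background. The median gene had an SD of 0.40 over the 4 tumours, or 0.35 among genes above background on all 4 arrays. The signal of a probe depends on the probe as well as on the RNA, so ranks of brightness describe signal, and only comparisons of a gene with itself across tumours are comparisons of RNA. Correlations over all genes between pairs of tumours were 0.964 to 0.979, lowest between tumours 1 and 3. These correlations are across genes, which are not independent replicates.

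The MISII receptor promoter is printed because it defines the model, in which it drives the transgene. The stretch below lies upstream of the RefSeq start of Amhr2 (GRCm38.p6, chr15:102445128-102445157, plus strand). Capitals mark AAGGTCA, the core motif of steroidogenic factor 1 (the product of Nr5a1), which begins 231 bases before the start.
Amhr2 promoter: cttcttccAAGGTCAgtaggggtagagatt
The motif was searched on both strands in the window from 250 bases before to 50 after the start. It occurred once in this window and in 4.72% of the 32851 RefSeq promoters of the same length. A match is a description of letters and no evidence of binding.

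Amhr2 was among the brightest signals of all 4 tumours, with log2 signals of 6.12, 6.89, 6.92 and 5.98 (mean 6.48, SD 0.50, n = 4; rank 132 of 31818). Tumours 2 and 3 were higher than tumours 1 and 4 by under 1 log2. Clu, a secreted chaperone abundant in Sertoli cells, had log2 signals of 6.80, 5.97, 6.64 and 6.35 (SD 0.36). Inha, the inhibin alpha subunit and a standard marker of sex cord tumours, had 5.40, 5.26, 4.27 and 4.38 (SD 0.59), with tumours 1 and 2 about 1 log2 above tumours 3 and 4. Cst12, a cystatin gene known from Sertoli cells, varied most of these markers, with log2 signals of 3.45, 4.52, 5.73 and 4.09 (SD 0.96), highest in tumour 3. All 4 markers were above background on all 4 arrays, and 2 of them, Amhr2 and Clu, were among the brightest 500 genes, against 1.57% of all genes. Since 70.7% of all genes passed the flag on all 4 arrays and brightness describes signal, these levels do not by themselves establish a lineage.

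**Figure D1:**
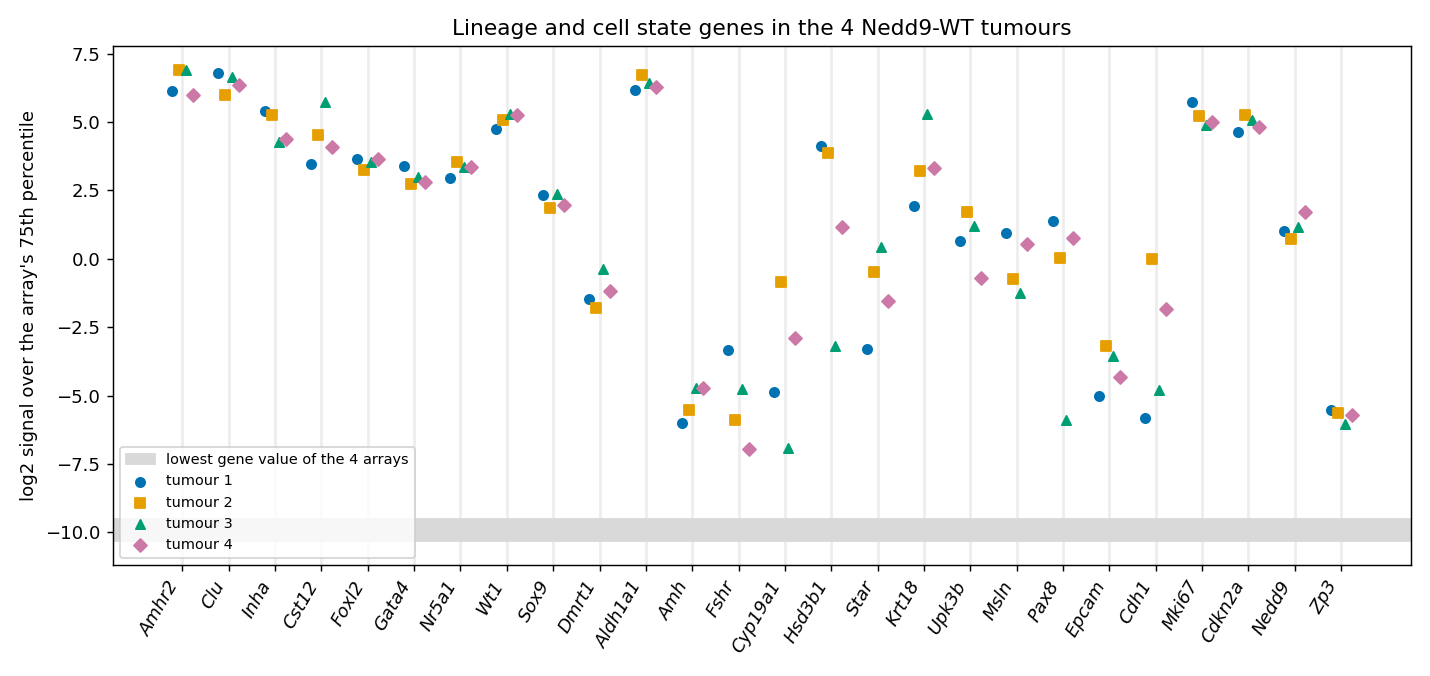
Log2 signal over the array's 75th percentile (vertical axis) of 26 lineage and cell state genes in each of the 4 tumours (one symbol per tumour); the grey band spans the lowest gene values of the 4 arrays. Amhr2, Clu, Foxl2, Wt1 and Aldh1a1 sit close together in all tumours, while Hsd3b1, Pax8, Cyp19a1 and Cdh1 span several log2 units.

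Of 18 measured genes of the granulosa and follicle list, 17 (94.4%) were above background on all 4 arrays, against 70.7% of all genes, and none was at background on all 4. The spread was small in Foxl2 on its brightest probe and wide in the enzymes of oestrogen synthesis. Foxl2, the transcription factor that maintains granulosa identity, had log2 signals of 3.66, 3.26, 3.55 and 3.66 (SD 0.19), a range of 0.40; its next probe was much dimmer and less even (-3.29, -2.64, -4.50 and -3.70). Gata4, its partner in the gonadal soma, had 3.39, 2.72, 2.98 and 2.80. The beta subunit gene Inhbb had 2.48, 2.24, 3.96 and 2.20 and was highest in tumour 3. Nr5a2, a nuclear receptor of granulosa and luteal cells, had 3.13, 2.43, 0.60 and 1.76 and was lowest in tumour 3. On their brightest probes, Foxl2 and Gata4 thus differed less between tumours than Inhbb and Nr5a2. On its next probe, Foxl2 had an SD of 0.78, close to the 0.83 of Inhbb. Cyp19a1, the aromatase that makes oestrogen, had log2 signals of -4.88, -0.85, -6.92 and -2.89 (SD 2.61) and Hsd17b1, which reduces oestrone, had 0.34, 1.25, -3.50 and 0.44; both were lowest in tumour 3. Amh was dim in every tumour (-6.02, -5.53, -4.72 and -4.72), and the receptor of follicle-stimulating hormone, Fshr, had -3.33, -5.90, -4.77 and -6.96, highest in tumour 1. Bmpr1b was above background in 3 tumours and not in tumour 3.

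Genes of steroid synthesis split the tumours most clearly of the gonadal lists: 4 of 15 measured members (Hsd3b1, Hsd3b6, Akr1c18 and Lhcgr) were among the 500 genes with the largest SD, against 1.57% of all genes. The shared regulators and electron carriers were even. Nr5a1, the master regulator of steroidogenic genes, had log2 signals of 2.97, 3.54, 3.37 and 3.36 (SD 0.24), Fdx1 (adrenodoxin) 2.63, 3.66, 2.97 and 3.28 and Fdxr 3.01, 3.03, 3.37 and 2.88. The enzymes were not. Hsd3b1, which converts pregnenolone to progesterone, had 4.11, 3.87, -3.20 and 1.17 (SD 3.40), so the highest and the lowest tumour were 7.31 log2 apart. Akr1c18, which inactivates progesterone, had 0.79, 2.07, -4.81 and -0.69. Cyp11a1, the enzyme that cuts the cholesterol side chain, had -1.64, 1.25, -3.15 and -0.25. Each of these enzymes was lowest in tumour 3. Star, which carries cholesterol into mitochondria, went the other way, with -3.28, -0.48, 0.42 and -1.54, highest in tumour 3 and lowest in tumour 1. Cyp17a1, which opens the route to androgens, differed little (-0.28, -0.30, -0.08 and -0.41). The luteinising hormone receptor gene Lhcgr was above background in 2 tumours only, with log2 signals of -4.29, -9.52, -9.83 and -7.77.

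All 22 members of the Sertoli list were above background on all 4 arrays, against 70.7% of all genes, and 3 (Clu, Aldh1a1 and Ldhb) were among the brightest 500, against 1.57%. Wt1, the zinc finger factor of gonadal soma and mesothelium, had log2 signals of 4.73, 5.08, 5.31 and 5.27. Sox9, the testis-determining target of Sry, had 2.35, 1.85, 2.36 and 1.95 (SD 0.26) and Dmrt1, which maintains the male gonad, -1.47, -1.79, -0.36 and -1.19. Foxl2 and Sox9 were therefore both above background in all 4 tumours; whole-tumour RNA does not show whether the same cells carried both. Tumour 3 was highest for 13 of the 22 Sertoli genes, while it was highest for 27.3% of all genes above background on at least 1 array. Aard had 2.12, 2.66, 4.25 and 2.22, Shbg (the sex hormone carrier) 0.95, 1.09, 3.82 and 1.79, and Dhh (desert hedgehog, the Sertoli ligand) 2.34, 3.01, 3.83 and 2.21. The transferrin gene Trf had 4.35, 4.51, 5.70 and 2.40, highest in tumour 3 and lowest in tumour 4. Not all members followed: Defb36 was highest in tumour 2 (1.16, 3.08, 1.19 and 2.23) and Rhox5 in tumour 1 (-4.26, -6.05, -5.62 and -7.25).

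The surface and epithelial genes were mixed. All 16 genes of the mesothelium and ovarian surface list were above background on all 4 arrays, and tumour 2 was highest for 9 of them, against 13.8% of all genes, with tumour 4 lowest for 9, against 16.8%. Krt18, a keratin of simple epithelia, had log2 signals of 1.95, 3.21, 5.30 and 3.34 and Krt8, its partner, 2.33, 2.19, 3.32 and 1.82; both were highest in tumour 3. Upk3b, a uroplakin of mesothelium, had 0.66, 1.72, 1.20 and -0.70, Msln (mesothelin) 0.96, -0.72, -1.26 and 0.56 and Lgr5, a stem cell receptor of the ovarian surface, -2.16, 1.72, 0.31 and 1.56. All 18 genes of the general epithelium list were above background on all 4 arrays, yet the median of their mean levels was -3.63 log2, close to the -3.80 of all genes. Epcam had -5.03, -3.18, -3.56 and -4.32. Cdh1, the epithelial cadherin, had -5.82, 0.00, -4.81 and -1.84 (SD 2.68), highest in tumour 2 and lowest in tumour 1.

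Of 16 genes of the Muellerian and oviduct secretory list, 11 (68.8%) were above background on all 4 arrays, against 70.7% of all genes, and 2 (12.5%), Pgr and Hoxa11, on none, against 14.6%. Both shares were near those of all genes. Pax8, a factor of oviduct and Muellerian epithelium, had log2 signals of 1.37, 0.01, -5.89 and 0.76 (SD 3.35): tumour 3 lay far below the other tumours. Esr1, the oestrogen receptor, had -0.40, -0.61, -3.20 and -1.01, also lowest in tumour 3. Ovgp1, the oviduct glycoprotein, had -0.33, -4.22, -2.86 and -2.74, highest in tumour 1. Of 18 genes of motile cilia, 15 were above background on all 4 arrays, and tumour 1 was highest for 9, against 28.7% of all genes. With quantile normalization it was highest for 7, against 26.2% of all genes. Foxj1, the master regulator of motile cilia, had -1.51, -3.30, -6.21 and -3.95, Tekt1, a protein of ciliary microtubules, -0.82, -6.20, -2.91 and -4.44, and Dynlrb2, a dynein light chain, -0.86, -4.09, -5.18 and -3.91. In these 3 genes tumour 1 exceeded the next tumour by over 1 log2. The other 9 members were highest elsewhere: Rsph1, of the radial spokes, had -0.57, -1.23, 0.58 and -1.72, highest in tumour 3, and Dnah9, a dynein heavy chain, -7.53, -3.87, -7.97 and -7.93, highest in tumour 2. The brightest ciliary signal, Mcidas, came from a probe of simple repeats described below.

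**Figure D2:**
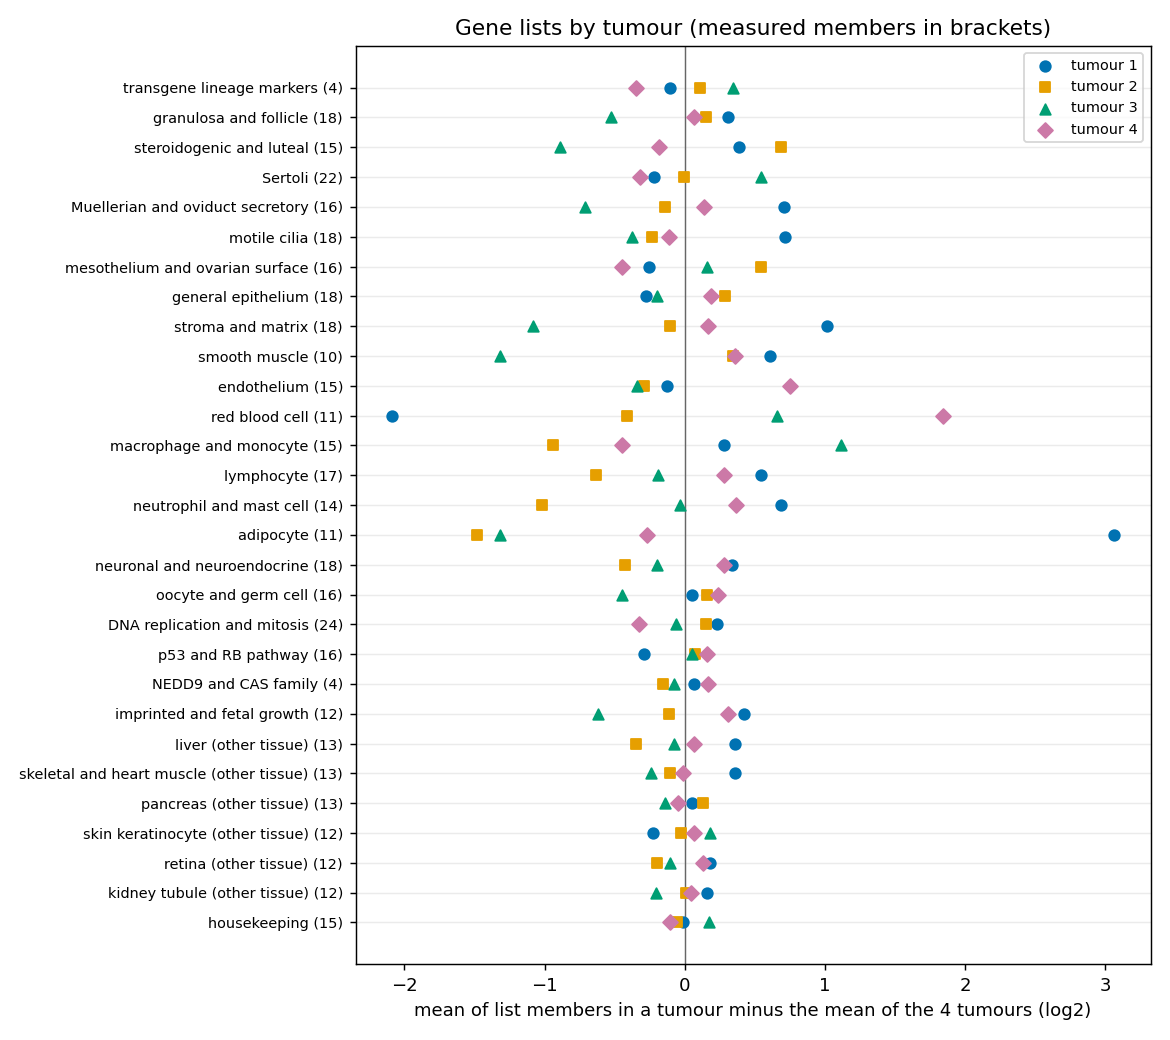
Mean log2 signal of the measured members of each gene list in a tumour minus the mean of the 4 tumours (horizontal axis), one symbol per tumour and one line per list. Adipocyte genes stand apart in tumour 1, and red blood cell genes spread from tumour 1 to tumour 4. The means of the housekeeping list span 0.28 log2, and those of the other tissue lists from 0.27 (pancreas) to 0.71 (liver).

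Fat, red blood cell, stromal and macrophage genes had larger median SDs over the tumours than the granulosa and Sertoli genes. The median SD of members was 2.15 log2 for adipocyte, 2.06 for red blood cell, 1.32 for stroma and matrix and 1.03 for macrophage genes, against 0.61 for granulosa, 0.66 for Sertoli, 0.83 for steroidogenic, 0.91 for ovarian surface and 0.40 for all genes. By members among the 500 genes with the largest SD the order differed: 1 of 18 stroma and 0 of 15 macrophage genes, but 4 of 15 steroidogenic genes, were among them. Adipocyte genes were highest in tumour 1 for 9 of 11 measured members, against 28.7% of all genes, and 5 of the 11 were among the 500 genes with the largest SD. Cfd (adipsin) had the largest SD on the array, with log2 signals of 4.95, -9.43, -8.82 and -1.90 (SD 6.76), and was above background in 2 tumours. Fabp4, the fatty acid carrier of adipocytes, had 3.29, -3.85, -2.50 and -1.88 and Adipoq (adiponectin) 0.91, -8.49, -6.17 and -5.56. Retn (resistin) had 0.98, -5.12, -4.01 and -3.91. Lipe and Lep did not share this order: Lipe, the hormone-sensitive lipase, was highest in tumour 2 (-2.83, -2.27, -4.44 and -2.73), and Lep, the leptin gene, differed little (-6.26, -6.53, -6.20 and -6.24). The part of adipose tissue in other genes that were high in tumour 1 was not tested.

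Red blood cell genes were lowest in tumour 1 for 10 of 11 members, against 20.1% of all genes, and highest in tumour 4 for 8, against 30.2%. The haemoglobin gene Hbb-b1 had log2 signals of 3.86, 5.48, 7.08 and 7.38 and Alas2, the erythroid enzyme of haem synthesis, -0.38, 1.32, 3.36 and 4.62. Slc4a1, the anion exchanger of the red cell membrane, had -4.27, -2.98, -0.62 and 1.26. In each of these 3 genes the order was tumour 1, 2, 3, 4 from low to high. Ahsp, the stabilising protein of alpha haemoglobin, broke the order with -4.86, 3.70, -2.70 and 1.81 (SD 3.95), highest in tumour 2. Klf1, the erythroid transcription factor, was dim and even (-6.04, -6.26, -6.02 and -5.64). Endothelial genes were also highest in tumour 4, for 12 of 15 members against 30.2% of all genes: Vwf (von Willebrand factor) had -0.36, -0.92, 1.07 and 2.12 and Flt1, a receptor of vascular growth factor, -0.44, -0.29, -0.62 and 1.00. Kdr, the other main receptor of that factor, was even on its brightest probe (0.60, 0.60, 0.59 and 0.64, SD 0.02) and less so on its next (-0.11, 0.54, -0.52 and 0.14).

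Macrophage genes were highest in tumour 3 for 12 of 15 members, against 27.3% of all genes, and lowest in tumour 2 for 13, against 33.3%. Csf1r, the receptor of the macrophage growth factor, had log2 signals of 2.62, 1.44, 3.76 and 1.64, and Mpeg1 (perforin 2) 1.01, 0.46, 3.41 and 1.00. The complement genes C1qa, C1qb and C1qc kept the same order of tumours; C1qa had 1.41, -0.03, 2.55 and 0.67. Cd14, the receptor of endotoxin, had -2.23, -2.97, 0.22 and -2.02. Cd163, a scavenger receptor of resident macrophages, was above background in 1 tumour. Lymphocyte genes were dim, with a median of mean levels of -5.56 log2, and 10 of 17 were above background on all 4 arrays; Ncr1, a receptor of natural killer cells, was at background on all 4. The antibody joining chain gene Igj had -0.03, -6.59, -6.78 and -4.30, so tumour 1 exceeded the next by over 4 log2. The mast cell proteases Cpa3 (-2.73, -9.50, -7.40 and -8.59) and Mcpt4 (-1.80, -6.90, -7.47 and -6.58) had the same high tumour. Other mast cell genes did not: Tpsb2, a tryptase, had -0.68, -1.17, -0.60 and -0.67, and Kit, the receptor of stem cell factor, 0.48, 2.37, 0.25 and 1.27, highest in tumour 2. Tumour 1 was highest for 5 of the 14 neutrophil and mast cell genes, against 28.7% of all genes. The neutrophil gene S100a9 was instead highest in tumour 4 (-1.46, -2.15, 0.34 and 2.06).

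Most stromal and smooth muscle genes were lowest in tumour 3. This held for 11 of 18 stroma and matrix genes and 7 of 9 smooth muscle genes above background on at least 1 array, against 29.8% of all genes. Col1a1, a chain of type I collagen, had log2 signals of 2.88, 1.36, -0.63 and 1.35, Pdgfrb, the receptor of fibroblasts and pericytes, -1.61, -1.33, -5.29 and -0.71, and Postn (periostin) -1.24, -4.10, -8.09 and -2.89. Postn was not above background in tumour 3. Actg2, a smooth muscle actin, had 0.66, 0.36, -5.29 and -0.40 and Myh11, the smooth muscle myosin, -3.32, -3.03, -7.09 and -3.25. These are among the smooth muscle genes with the largest SD. Acta2, of the same list, was lowest in tumour 3 by a small margin only, and Smtn and Mylk were highest in tumour 3. Matrix genes did not move as a block: Vim (vimentin) had 4.59, 5.13, 6.17 and 5.30 and Mgp (matrix Gla protein) 3.92, 3.90, 5.09 and 3.10, both highest in tumour 3, and Fn1 (fibronectin) had 4.28, 1.10, 4.61 and 3.52, lowest in tumour 2.

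Cell cycle genes had a spread close to that of other measured genes and were mostly lowest in tumour 4. Of 24 genes of DNA replication and mitosis, 22 were above background on all 4 arrays; the list's median SD was 0.32 log2, against 0.35 over all genes above background on all 4 arrays and 0.24 over the brightest 500. Mki67 had log2 signals of 5.72, 5.22, 4.88 and 4.98, Mcm6, part of the replicative helicase, 5.88, 5.75, 6.08 and 5.60, and Top2a 3.03, 2.22, 2.24 and 1.65. Tumour 4 was the lowest for 16 of the 22, against 16.8% of all genes. The count was 21 with scaling by the median, against 28.2% of all genes on that scale. With quantile normalization it was 14, against 20.4%. Ccne2 and Aurkb were at background on all 4 arrays on the probes used. All 16 genes of the p53 and retinoblastoma pathways were above background on all 4 arrays. Cdkn2a, the locus of p16 and p19Arf, was the brightest of them, with 4.63, 5.27, 5.08 and 4.82 (SD 0.28). Among the targets of p53, Cdkn1a had -0.16, 1.94, 2.68 and 1.91, Ccng1 -0.16, 0.85, 1.10 and 0.79 and Mdm2 2.35, 2.61, 2.65 and 3.20; all 3 were lowest in tumour 1. Bax, a target that promotes cell death, differed by at most 0.20 log2 (1.46, 1.61, 1.45 and 1.41).

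Nedd9, the scaffold protein whose wild-type allele defines the group, was above background in all 4 tumours with log2 signals of 1.03, 0.72, 1.18 and 1.72 (mean 1.16, SD 0.42); tumour 4 was highest. Its family members Bcar1 (p130Cas) and Efs had 2.45, 2.45, 2.91 and 2.59 and 1.59, 2.00, 1.38 and 1.36. Cass4 was much dimmer (-5.28, -6.28, -6.24 and -5.47) but above background on all 4 arrays. The SD of Nedd9 lay between those of Bcar1 (0.22) and Efs (0.30) on one side and that of Cass4 (0.52) on the other.

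Genes of other tissues were dim but often passed the flag. In the 6 lists of liver, muscle, pancreas, keratinocyte, retina and kidney genes, medians of mean levels lay between -7.97 and -5.64 log2, and 40 of 75 genes were above background on all 4 arrays, against 70.7% of all genes, while 20 were at background on all 4, against 14.6%. Alb and Ttr of liver, Myh4 of muscle, Pdx1 of pancreas, Crx and Nrl of retina and Slc12a1 of kidney were among those at background. Among those above background, Ins2 (insulin) had log2 signals of -2.70, -2.39, -2.92 and -2.93 and Aqp2, a kidney water channel, -2.32, -2.29, -2.06 and -1.66. Of 16 oocyte and germ cell genes, 5 were above background on all 4 arrays and Zp1, Zp2 and Figla on none. Gdf9, an oocyte growth factor, had -2.50, -2.52, -3.40 and -2.46 and Ddx4 (vasa) -6.42, -5.64, -6.21 and -4.52. Of 1093 olfactory receptor genes, 556 (50.9%) were at background on all 4 arrays.

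The brightest 500 genes had means from 5.32 to 7.65 log2; Psmc3 and Gm16379 were the last inside (5.3165 and 5.3163 log2) and Gnb2 the next outside (5.3145). Of the 500, 195 (39.0%) had a described name, against 57.9% of all genes. Over the whole 500, 111 names had a description naming a ribosomal protein, 22.2% against 1.04% of all genes. RefSeq pseudogenes made up 119 names, 23.8% against 3.05% of all genes. These classes overlap each other and the described names. Probes of such near-identical copies cannot be assigned to 1 locus. Of the 500 genes, 28 had a probe saturated on at least 1 array and 6 on all 4; their spread may be understated and their order is set in part by the scanner's ceiling. The described genes with the highest means were among them: Tuba1b, a tubulin (7.82, 7.66, 7.79 and 7.35, saturated on 3 arrays), Exosc2, part of the RNA exosome (7.69, 7.55, 7.65 and 7.58, on 4), the small RNA Rn4.5s (7.58, 7.35, 7.59 and 7.55, on 3) and Actb (7.37, 7.34, 7.58 and 7.52, on 2). The histone H2A genes H2afj (7.55, 7.40, 7.08 and 7.06) and Hist1h2af (7.51, 7.37, 7.16 and 7.14) were saturated on 2 arrays each, and both were higher in tumours 1 and 2 than in tumours 3 and 4. The globin Hba-a2 was the only one of the 30 brightest described genes with an SD above 0.5 log2 (6.44, 7.48, 7.65 and 7.58, SD 0.57); its probe was saturated on 3 arrays.

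Some of the brightest described genes were bright on 1 probe and dim on the next. F10 (coagulation factor X, made in liver) had log2 signals of 7.48, 7.33, 7.46 and 7.41, Slc10a1 (the bile acid uptake carrier of liver) 7.43, 7.30, 7.43 and 7.43, and Elk1, an ETS factor, 7.48, 7.34, 7.46 and 7.45; all 3 probes were saturated on all 4 arrays. The next probe of F10 had -6.25, -9.15, -4.15 and -2.86, that of Slc10a1 -7.46, -7.42, -6.85 and -5.58 and that of Elk1 -4.41, -5.17, -5.19 and -4.95. The probe stretches below, 30 of 60 bases each, are shown because 20 of the brightest 500 genes (4.00%, against 0.251% of all genes) were read by a probe that holds 1 of the 3 stretches. The B1 and B2 stretches were taken from the probes of F10 and Synrg, which are among those 20 genes. Within each of these probes, the 12 bases held by the most probes of the brightest 500 genes were chosen. The share in the brightest 500 is therefore a description of a pattern found there and supports nothing. Capitals mark the 12 bases shared with other probes; coordinates are those of the probe in mm9.
F10 probe, chr8:13056119-13056178, plus strand: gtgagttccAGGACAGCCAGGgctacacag
Elk1 probe, chrX:20510521-20510580, minus strand: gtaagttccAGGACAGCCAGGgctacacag
Synrg probe, chr11:83855517-83855576, plus strand: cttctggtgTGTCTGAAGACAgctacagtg
Pbld probe, chr10:62540215-62540274, plus strand: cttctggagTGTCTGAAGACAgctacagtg
Itgam probe, chr7:135261755-135261814, plus strand: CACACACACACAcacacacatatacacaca
Snap25 probe, chr2:136607709-136607768, plus strand: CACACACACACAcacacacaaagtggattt
Probes were searched in the letters as deposited, on the probe's own strand. The stretch in the F10 and Elk1 probes reads as part of the B1 interspersed repeat, the stretch in the Synrg and Pbld probes as part of the B2 repeat, and the last pair is a run of CA repeats. B1 and B2 are short repeats scattered in great number through the mouse genome and its transcripts.

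The B1 stretch was in 9 probes of 39409, and 8 of these were the probe of a gene among the brightest 500; the median of their means was 7.17 log2, against -3.78 over all probes. The B2 stretch was in 20 probes, of which 12 stood for a gene among the brightest 500 (median 6.29 log2). These B1 and B2 counts and medians follow in part from choosing stretches shared among the brightest 500, so they support nothing. The CA stretch was in 54 probes, none of them in the brightest 500, with a median of 1.27 log2. Holders of the CA stretch varied together: relative to their own means, their median deviations in tumours 1 to 4 were 0.58, -0.09, -1.02 and 0.51 log2. Itgam, an integrin of myeloid cells, had 4.01, 3.53, 2.67 and 4.12, Snap25 of nerve terminals 3.54, 3.02, 2.22 and 3.61, and Mcidas, a regulator of ciliated cells, 4.10, 3.62, 2.72 and 4.17: tumour 3 lowest and tumours 1 and 4 highest in all 3 genes. The next probe of Itgam had -3.71, -4.63, -2.18 and -3.34, highest in tumour 3 like 12 other macrophage genes without the stretch. Among the 173 of the brightest 500 genes with more than 1 probe, the next probe was over 6 log2 dimmer in 35 (20.2%), against 6.56% of all 6329 genes with more than 1 probe; 10 of the 35 held a stretch. Slc10a1 is bright without any of the 3 stretches, so these do not cover every such probe.

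**Figure D3:**
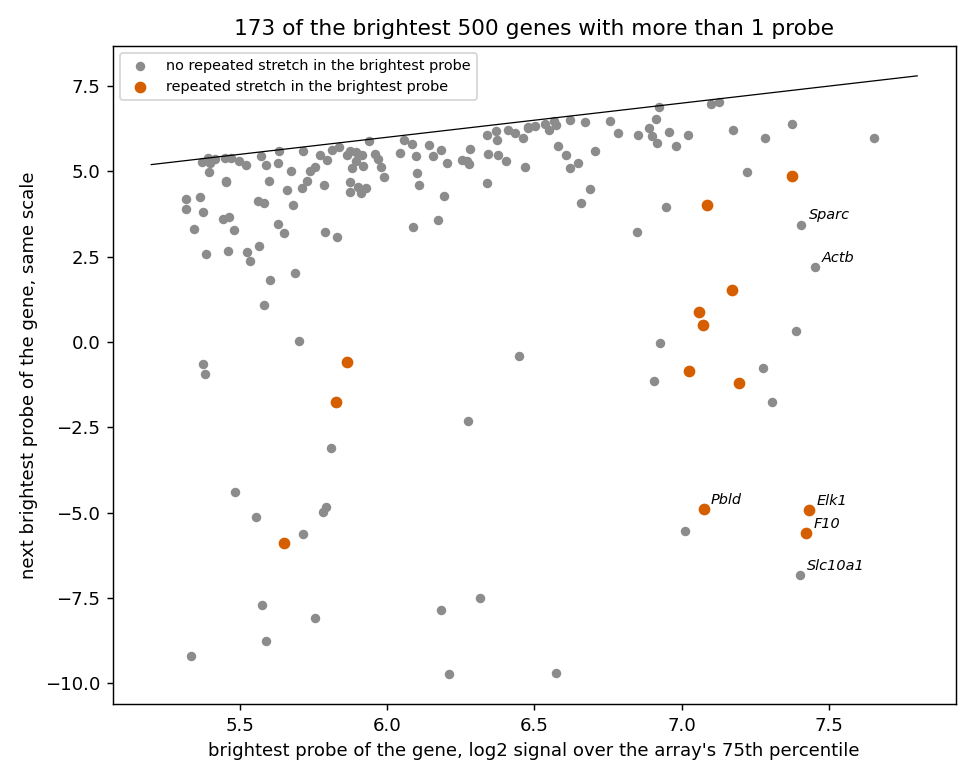
Mean log2 signal over 4 tumours of the brightest probe (horizontal axis) against the next brightest probe of the same gene (vertical axis) for 173 of the brightest 500 genes; orange points have a repeated stretch in the brightest probe and the line marks equal signal. F10, Elk1, Slc10a1 and Pbld are bright on 1 probe and below -4 on the next.

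Of the 500 genes with the largest SD (2.15 to 6.76 log2), 144 were above background on all 4 arrays, 116 on 3, 110 on 2 and 130 on 1, whereas 70.7%, 4.82%, 4.71% and 5.17% of all genes were above background on 4, 3, 2 and 1 arrays. Cxcl3 and Angpt2 were the last inside (SD 2.1549 and 2.1545 log2), with LOC100045366 (2.1539) and Plin1 (2.1524) next outside. Each gene's farthest tumour is the tumour with the largest distance from the median of the other tumours. It was tumour 1, as the higher one, in 166 of the 500 genes (33.2%), and tumour 3, as the lower one, in 110 (22.0%). Among the 144 genes above background on all 4 arrays, tumour 3 was the low one in 51 (35.4%) and tumour 1 the high one in 38 (26.4%). Over all 22483 genes above background on all 4 arrays these shares were 16.3% and 13.2%.

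**Figure D4:**
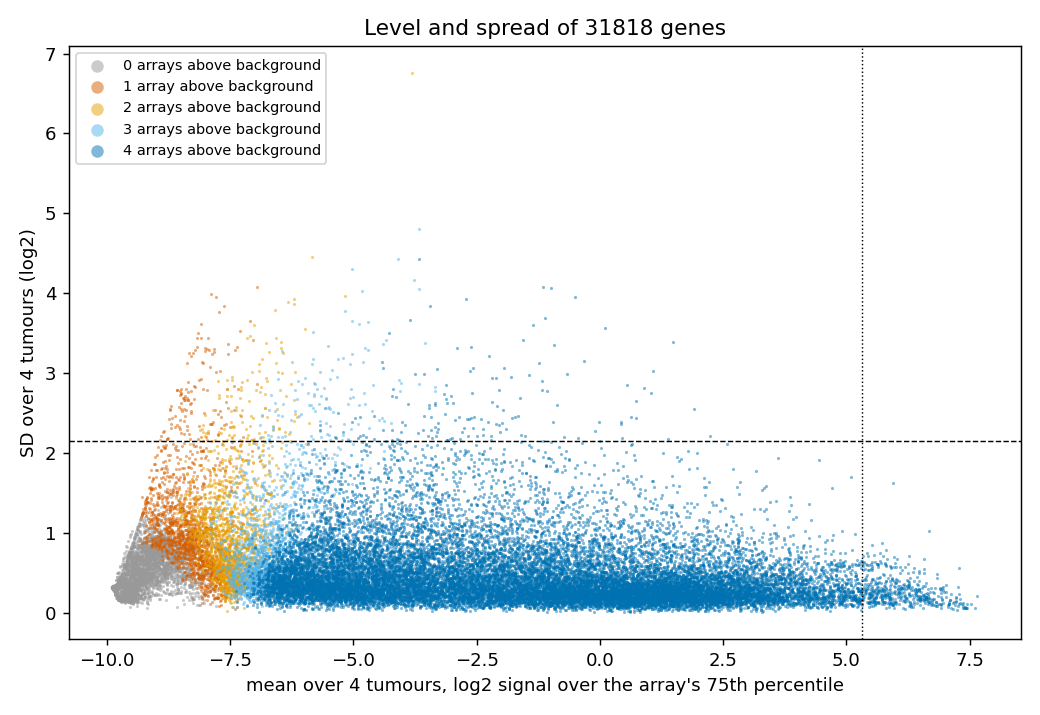
Mean log2 signal (horizontal axis) and SD over the 4 tumours (vertical axis) of 31818 genes, coloured by the number of arrays on which the gene was well above background. The dashed line marks the SD of the gene ranked 500 (2.15 log2), the dotted line the mean of the gene ranked 500 (5.32 log2); most large SDs lie at low means.

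A further probe of the same gene gives a reading that the ranking did not use. It was on hand for 76 of the 500 genes. It named the same farthest tumour in the same direction in 24 of 29 genes above background on all 4 arrays (82.8%), in 8 of 22 above background on 3 arrays, 5 of 13 on 2, and 1 of 12 on 1. Over all genes with more than 1 probe the shares were 51.0%, 25.7%, 23.6% and 17.2% for genes above background on 4, 3, 2 and 1 arrays. The share was thus above that of all such genes on 4 (82.8%), 3 (36.4%) and 2 arrays (38.5%) and below it on 1 (8.33%). The SD on the further probe was a median of 0.84 times that on the brightest for genes above background on 4 arrays, and 0.31, 0.41 and 0.28 times for those on 3, 2 and 1. Crispld2, a secreted protein, had log2 signals of 2.17, 2.49, -3.45 and 3.06 and 0.58, 1.00, -5.90 and 1.55 on its next probe. Dmkn (dermokine) had -0.77, -2.74, 4.24 and -2.03 and -1.04, -3.06, 3.95 and -2.31. Ptn, the growth factor pleiotrophin, had 2.52, 4.23, -1.74 and 2.59 and 1.35, 3.03, -2.69 and 1.67, and Lama2, a laminin chain, 1.63, 1.66, -3.41 and 0.07 and 0.95, 1.02, -4.32 and -0.68. In these 4 genes both probes placed tumour 3 apart, low for 3 genes and high for Dmkn. Cyp2e1, a cytochrome of liver and fat, had 1.24, -5.29, -4.78 and -4.40 and -0.65, -5.87, -6.04 and -5.36, high in tumour 1 on both. These genes were chosen because both probes gave like values. Prlr, the prolactin receptor, was low in tumour 3 on both probes but by unlike amounts, with -0.19, -0.60, -6.47 and -1.14 (SD 2.94) on the brightest and -2.72, -2.83, -4.20 and -3.12 (SD 0.68) on the next.

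Among the 30 described genes with the largest SD above background on all 4 arrays, tumour 3 was the low one in 16 and the high one in 5, and tumour 1 was the high one in 7. Low in tumour 3 were Prlr, Lrrn1 (3.20, 1.61, -5.01 and 0.61), Rgs5, a marker of pericytes (-1.24, -1.68, -6.69 and -0.78), and Cnr1, a cannabinoid receptor (-1.29, 1.33, -5.21 and 0.44). High in tumour 3 were Rgs1 of leukocytes (-7.19, -6.05, 0.74 and -4.57), the phosphatase gene Dusp4 (-4.36, -5.75, 0.88 and -3.29) and Myoz2 (-6.70, -2.83, 1.37 and -3.42). High in tumour 1 were Car3, a carbonic anhydrase abundant in fat (2.78, -6.62, -6.54 and -4.27), Cdh16, a cadherin of kidney epithelium (1.57, -5.79, -6.30 and -4.90), Hp (haptoglobin, 3.41, -5.06, -2.89 and -0.85) and Rbp4, the retinol carrier (0.11, -6.80, -5.44 and -5.42). Car3, Hp and Rbp4 are made by adipocytes among other cells, and adipocyte list genes were highest in the same tumour; their part in these values was not tested. Esm1, an endothelial proteoglycan, separated tumours 3 and 4 from tumours 1 and 2 (-1.43, -1.59, 3.81 and 2.82). Rps4y2, whose current RefSeq symbol is Rps4l, a pseudogene, had 0.66, 3.69, -5.19 and -3.75. It was the only one of 331 names described as a ribosomal protein that was among the 500 genes with the largest SD.

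**Figure D5:**
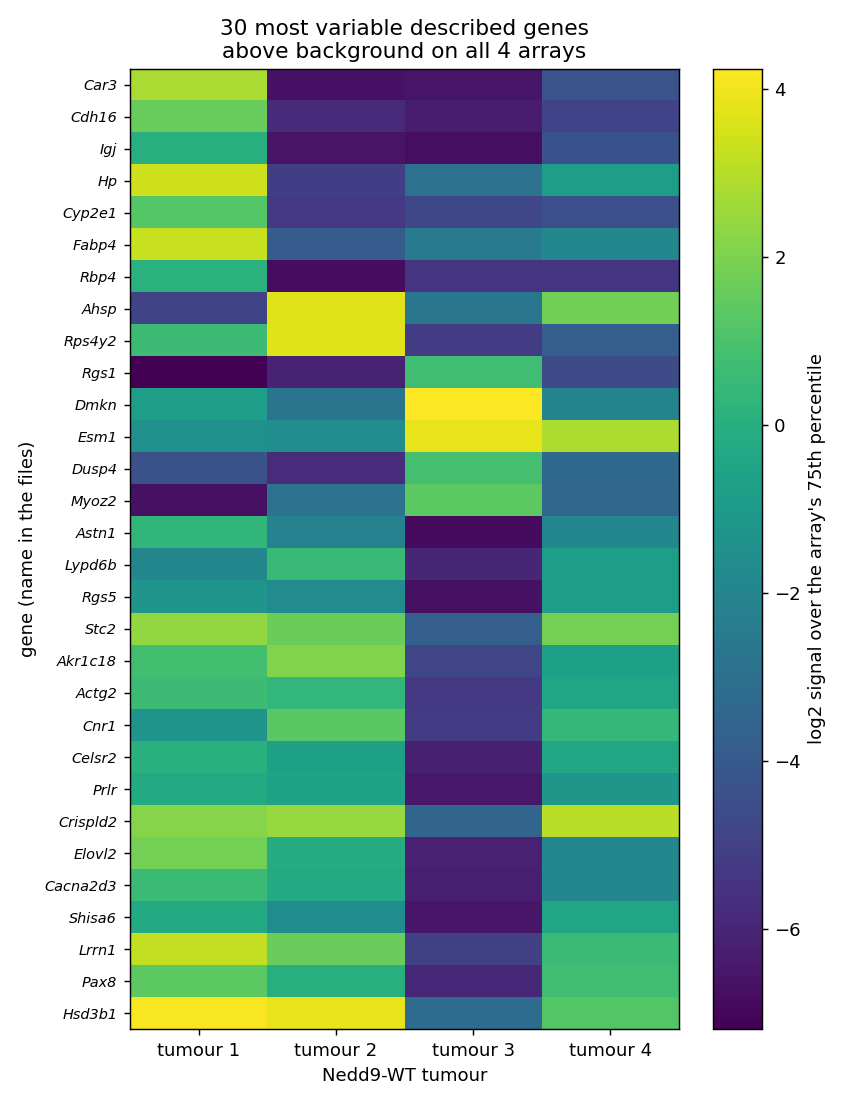
Log2 signal over the array's 75th percentile (colour) of the 30 described genes with the largest SD among genes above background on all 4 arrays, by tumour (columns) and sorted by the farthest tumour. A block of genes is low in tumour 3 alone and another is high in tumour 1 alone.

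Neuronal, imprinted and housekeeping genes complete the lists. Of 18 neuronal and neuroendocrine genes 15 were above background on all 4 arrays and Scg2 on none; Ncam1, an adhesion molecule of nerve and gonad, had log2 signals of 2.91, 3.12, 0.93 and 3.30, lowest in tumour 3, and Uchl1, a ubiquitin hydrolase, 0.58, 0.62, 2.75 and 0.30, highest in tumour 3. Of 12 imprinted and fetal growth genes, 9 were above background on all 4 arrays and Lin28b on none. Plagl1, an imprinted zinc finger gene, had 1.48, -0.84, -2.04 and 0.34 and Meg3, an imprinted non-coding RNA, -2.45, -6.81, -6.68 and -3.65; the next probe of Meg3 had -4.25, -5.80, -6.61 and -4.76 and did not single out the same tumour. Of 14 neutrophil and mast cell genes, 7 were above background on all 4 arrays and 3 were among the 500 with the largest SD. All 15 housekeeping genes were above background on all 4 arrays, 9 were among the brightest 500, and their median SD was 0.17 log2. Gapdh had 6.71, 6.74, 7.28 and 7.11, and B2m, the light chain of class I antigens, varied most with 4.27, 2.97, 3.90 and 3.11 (SD 0.62).

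Below full detection the largest SDs belonged to genes seen in 1 to 3 tumours. Tbx1, a developmental transcription factor, had log2 signals of 1.65, -4.36, -9.85 and -2.14 and Osr1, a factor of the urogenital mesoderm, 0.29, -7.14, -7.59 and -5.13. Erbb4, a receptor of neuregulins, had -6.96, -7.70, 0.49 and -0.90, but its next probe had -9.42, -7.65, -6.76 and -7.25 and did not single out the same tumour. Prl, the prolactin gene, had -0.80, -8.67, -6.11 and -7.71, and Scgb2a2 (mammaglobin) -9.55, -9.23, -2.09 and -10.04, above background in tumour 3 alone. The lowest signals that passed the flag lay at -7.56, -7.21, -7.53 and -8.00 log2 in tumours 1 to 4, and the lowest gene values at -9.88, -9.53, -9.85 and -10.33. Values below the flag lay between these levels or close to them and are not reliable as levels, so the low side of these differences is uncertain. Of the 130 genes above background on 1 array, 52 were so in tumour 1, 38 in tumour 2, 33 in tumour 3 and 7 in tumour 4. The same split over all 1645 genes above background on 1 array is not given here. The share of probes that passed the flag also differed, from 73.0% in tumour 2 to 83.0% in tumour 4. The split is therefore not to be read as a trait of these 130 genes.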

How the data were processed

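RNA of 4 Nedd9-WT tumours was profiled on 1-colour Agilent mouse arrays; per the labels' protocols 500 ng of RNA was amplified and labelled with Cy3. Per the file headers and the submitters' processing notes, the deposited intensity values (processed signal, background-subtracted) and spot flags, which carry other values than signal, were made with Agilent Feature Extraction 9.5.3. The deposited value table of the authors holds log2 values; its 4 columns had a median of 8.24 each and followed the scanner values in the same direction (slopes 0.917 to 0.984 over brighter spots), and how it was normalized is not given in the sources used here.

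From the scanner files, control spots (1377 of 44397) and spots marked as outliers (194 to 206 per array) were left out, log2 processed signals were centred on the array's 75th percentile over non-control spots, spots of a probe were averaged, and each gene name took its brightest probe. Gene names are those of the files, in the lists also through RefSeq (GRCm38.p6) by accession (26044 probes), symbol (3193) or synonym (928); 9244 probes kept the file's name. Positions of probes are in mm9, as deposited. No test was made, since there is 1 group. The spread between spots of a probe covers repeat spots on 1 array only, so it sets no threshold for a difference between tumours. The number of arrays limits the precision. The steps ran in Python 3.11.15 with pandas 2.3.3 and numpy 2.4.6, and limma 3.58.1 gave the normexp alternative with an offset of 50.

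The members and the 29 gene lists were chosen with earlier results of these data known, so a list's direction is no independent evidence. Named genes are Nedd9, Amhr2, Inha, Clu and Cst12; the 30 brightest described genes; the 30 described genes with the largest SD, overall and above background on all 4 arrays; up to 6 members with the highest mean and up to 3 with the largest SD of each list; and list members at background. Further genes were named after their values were seen: those that hold a repeated stretch, genes with a second probe, and list members that complete a pattern. Alternatives covered scale, normalization, background correction, outlier spots, probe and name rules, dim genes and each tumour left out.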

Additional observations from a re-analysis of the deposited data

Results flagged for a closer look

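In each of the 135 genes printed with values, the 29 list means and 4 array measures, the highest or lowest tumour was set against the others by the gap to its nearest neighbour over the whole range; 17 of 168 were past the 95% critical ratio for 4 samples, where chance gives about 1 in 20. Over all 22483 genes above background on all 4 arrays, 5.67% were past it. The mean of the smooth muscle list stood apart in tumour 3, at -3.11 log2, below the other tumours, although its members Smtn and Mylk were highest there.

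Genes with a lone low value in tumour 3 were Myh11 (-7.09 log2), Crispld2 (-3.45), Prlr (-6.47), Rgs5 (-6.69), Ncam1 (0.93) and Gdf9 (-3.40). Genes with a lone high value in tumour 3 were Inhbb (3.96 log2), Uchl1 (2.75) and Scgb2a2 (-2.09); Scgb2a2 was not above background in the other tumours, so its gap rests on values near the floor. Tumour 1 stood apart as the high one for Mcpt4 (-1.80 log2) and Cyp2e1 (1.24) and as the low one for Hba-a2 (6.44), whose probe was saturated on 3 of the 4 arrays, so the closeness of the other tumours is set by the scanner's ceiling. Tumour 4 stood apart for Kdr (0.64 log2) within a range of 0.047 log2, about the size of the median SD between spots of a probe. The next probe of Kdr was highest in tumour 2 (0.54 log2). Tumour 2 stood apart as the high one for Dnah9 (-3.87 log2) and as the low one for Tpsb2 (-1.17). Tumour 2 was also the low one for Slc10a1 (7.30). This probe was saturated on all 4 arrays, so the gap says nothing about the gene. The 75th percentile that signals are divided by was highest in tumour 2, and its part in the gap was not tested. Many of these genes were printed because of their spread, so the count of flags among them is no sample of all genes.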

How the results depend on the processing

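The brightest 500 genes kept 411 to 500 members under every alternative run, fewest with the mean of all probes of a gene name. The 500 genes with the largest SD were less stable: 238 remained with normexp background correction, 285 with the authors' deposited value table, 144 when only genes above background on all 4 arrays could enter, and 306 to 425 when 1 tumour was left out (306 without tumour 3, 313 without tumour 1, 378 without tumour 2, 425 without tumour 4). The cause was not tested, except that the detection filter itself removes 356 of the 500. The 22483 genes above background on all 4 arrays became 22497 to 23557 with 1 tumour left out, and the 4657 genes at background on all arrays became 4747 to 5669, or 1541 with the scanner's flag for a positive and significant signal. The lowest correlation between tumours, 0.964, was 0.971 with normexp, 0.971 with the deposited table, 0.956 over genes above background on all 4 arrays, 0.950 over genes above background on at least 1 array, and 0.964 to 0.975 with 1 tumour left out.

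Scaling by the median in place of the 75th percentile shifts tumours 1 to 4 by -0.12, 0.16, 0.12 and -0.16 log2 against each other. The tumour with the highest list mean was the same in 22 of 29 lists with that scale, in 24 with quantile normalization or the deposited table, and in 27 with normexp. With 1 tumour left out, the highest of the remaining tumours was the same in all 29 lists. That outcome was all but fixed in advance, since each array is scaled on its own and only a change of brightest probe could alter a value. Tumour 1 stayed highest for 9 or 10 of the 11 adipocyte genes, tumour 3 for 12 or 13 of the macrophage genes and tumour 4 for 11 to 13 of the 15 endothelial genes under every scaling and probe rule run. Over all genes, tumour 1 was highest for 20% to 31.3% under these settings, tumour 3 for 26.9% to 36.3% and tumour 4 for 18.4% to 30.5%. Itgam turned: its difference of tumour 3 from the others became 0.26 log2 with the mean of its probes and 1.53 without probes that hold a repeated stretch, an alternative added after seeing the data. Of 1988 further values of genes and lists under alternatives, 1933 moved by less than the spread between tumours and 53 by more. These counts do not measure robustness. They include 131 and 143 values from the filters on all 4 arrays and on at least 1 array, which leave gene values unchanged. Values with 1 tumour left out could change little as well. The spread is that of the gene or list itself, and many genes were printed because theirs was wide.

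No paired analysis was possible because the values describe 1 group and come from no test. With 4 arrays, 1 per tumour, biological spread and the error of preparing a sample cannot be told apart, and values below background are not reliable as levels.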
